A study of Homo sapiens with 6 samples.

Results

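The comparison described here is that of UVC-irradiated with untreated MRC5VA cells, both taken 40 min after release from DRB. It consists of 2 libraries, 1 on each side, of the 6 libraries in the series, and they were selected by the treatment and time in their labels. MRC5VA is an SV40-transformed human lung fibroblast line, so every sample comes from 1 established line grown in standard medium. All cells, the untreated ones included, were first kept in DRB at 100 µM for 3.5 h. The irradiated group then received UVC at 15 J/m2 while the untreated group (0 J/m2) did not, and DRB was washed out at once. Nuclei for the pair described here were collected 40 min later and subjected to global run-on sequencing (GRO-seq). The other 4 libraries are the same treatments at 10 and 25 min, and they are used below only as reference levels.

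DRB inhibits the kinase of P-TEFb, which RNA polymerase II needs to leave the promoter-proximal pause and enter productive elongation. During the block, polymerases already inside genes run off, and after washout the paused polymerases move into gene bodies together as a wave. UVC produces cyclobutane pyrimidine dimers and 6-4 photoproducts in DNA. Such lesions in the transcribed strand stop elongating polymerase II, and the stopped polymerase is the starting signal of transcription-coupled nucleotide excision repair. In GRO-seq, engaged polymerases extend their transcripts in isolated nuclei with a brominated nucleotide, here for 5 min, so the signal counts polymerases that are able to elongate and leaves out those that cannot.

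Each library was deposited as 1 profile of signal averaged over genes, at every base from -2000 to 120000, and the signal is given below on the deposited scale. Position 0 is taken to be the annotated gene start. No gene is named because the profiles hold no gene-level values, and the number and identity of the averaged genes are not given in the sources used here. An average cannot tell apart fewer active genes, fewer active cells and fewer polymerases per gene. With 1 library a side there is no replicate error and no test between groups, and the number of cultures behind each library is not given either.

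The values themselves carry a trace of how the profiles were built. In both 40 min libraries 100.0% of the values were whole multiples of 1 small step, to within 0.001 of a step. The jumps from one base to the next recurred with opposite sign 250 bp further on. The autocorrelation of these jumps at a lag of 250 bp was -0.39 in the untreated and -0.32 in the irradiated library, against -0.041 and -0.015 at the next lowest of the 1000 lags examined. The lowest lag was 250 bp in each of the 6 libraries. Such a pattern arises when every 51 bp read is drawn out to a fixed 250 bp before the coverage is summed, although no label or header says so. If so, features narrower than 250 bp are not resolved. The sum of each profile, divided by its step and by 250, corresponds to 28382430 extended reads over the averaged genes in the untreated library and 14487311 in the irradiated one. A read over overlapping genes could count more than once in these sums.

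The untreated 40 min library stood apart from the others in this sum, since the remaining 5 libraries had 11806535 to 16054208. The sum grows with the signal itself, whose mean was 2.17 in the untreated and 1.43 in the irradiated 40 min library. It also depends on the size of the step, which was 3.74e-05 in the untreated and 4.81e-05 in the irradiated 40 min library. It is therefore no plain measure of sequencing depth. The untreated 40 min library also had the highest level in the last 12 kb of the profile, 1.35, where the other libraries had 1.13 to 1.30. The part that depth or library scaling has in the results was not tested. Values after 2 other scalings are given where they change a result. Dividing each profile by its own mean over those last 12 kb multiplies every 40 min ratio of irradiated to untreated signal by 1.17, and dividing each by its own mean over all positions multiplies it by 1.52. The intervals in square brackets are exact 95% binomial (Clopper-Pearson) intervals on these read equivalents. They cover counting error only, assume that 1 step is 1 extended read over 1 base, and are narrow because a window pools many reads.

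The irradiated profile was higher than the untreated one near gene starts, crossed it at 5.68 kb, fell to 31.9% of it at 27.6 kb, and then approached it again. Whether it stayed below the untreated profile past 60 kb depended on the scaling. In bins of 1 kb from -2 kb on, the irradiated signal as deposited was the higher in 8, which were all of the bins up to 6 kb. It was at least 2-fold lower in 36 bins (29.5%), which formed 1 unbroken run from 15 to 51 kb. At 1.5-fold the run was 51 bins (41.8%), from 11 to 62 kb. In the other direction, 1 bin (0.820%) was at least 1.5-fold higher, that from -2 to -1 kb, and 0 were 2-fold higher. These counts depended on the scaling. On division by the mean over all positions, 4 bins (3.28%), from 26 to 30 kb, were at least 2-fold lower and 28 (23.0%) at least 1.5-fold lower, while 8 (6.56%) were at least 1.5-fold higher and 5 (4.10%), from -2 to 3 kb, at least 2-fold higher. On division by the mean of the last 12 kb, 26 bins (21.3%), from 18 to 44 kb, were at least 2-fold lower, 5 (4.10%) were at least 1.5-fold higher and 0 were 2-fold higher. These are counts of neighbouring stretches of 1 profile pair and not of independent observations.

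**Figure D1:**
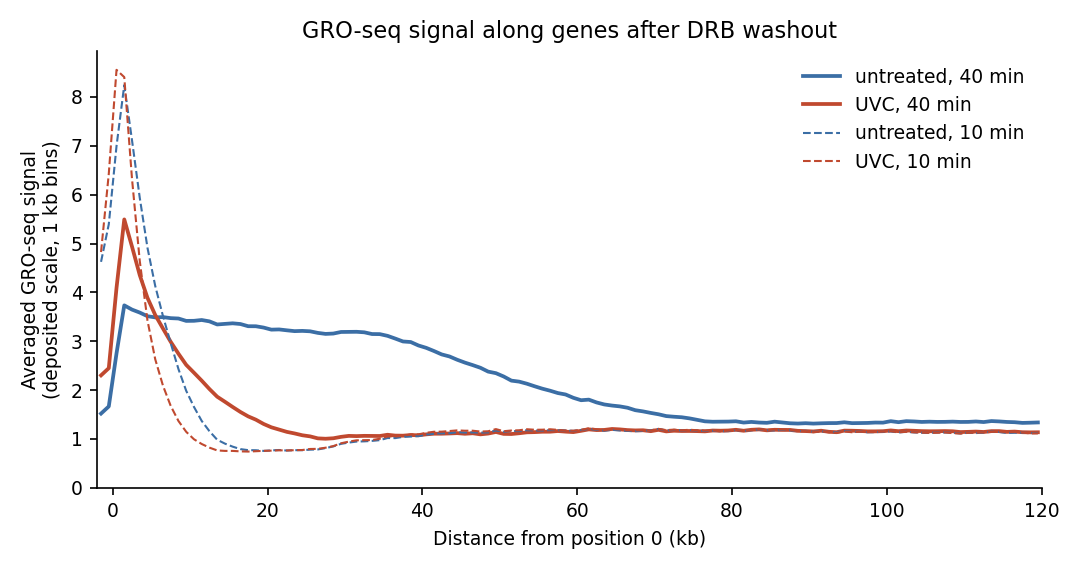
Averaged GRO-seq signal (deposited scale, 1 kb bins) against distance from position 0 in kb, for untreated (blue) and UVC-irradiated cells (red) at 40 min (solid) and 10 min (dashed), 1 library per line. At 40 min the untreated line runs nearly level from 5 to 35 kb, while the UVC line starts higher and falls to its lowest level at 27.6 kb.

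The promoter-proximal region, where released and newly initiated polymerases begin transcription, carried more signal after UVC in every bin. In the highest 250 bp bin, which was the bin from 1000 to 1250 bp in both libraries, the signal was 3.75 without and 5.65 with UVC. The single highest positions lay only bases apart, at 1167 bp in the untreated and 1160 bp in the irradiated library. Relative to the last 12 kb of the same profile, the highest bin stood 2.78-fold higher in untreated and 4.93-fold higher in irradiated cells.

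The excess around position 0 was nearly even. Over the 16 bins of 250 bp from -2 to 2 kb, the ratio of irradiated to untreated signal lay between 1.38 and 1.55. It lay between 2.10 and 2.35 on division by the mean over all positions. The lowest ratio was in the bin from -250 to 0 bp, where the signal was 1.51 without and 2.08 with UVC. Both profiles dipped there, to 1.36 at -116 bp in the untreated and 1.87 at -108 bp in the irradiated library. The highest ratio was in the bin from -1500 to -1250 bp, with a signal of 1.55 and 2.40. Per kilobase, the ratio was 1.47 [1.46, 1.48] just upstream of position 0, 1.49 [1.48, 1.49] in the first kilobase and 1.47 [1.46, 1.48] in the second. The shape of the start region was thus almost the same in both libraries and its height differed. The mean of the 2 kb upstream was 49.1% of the mean of the 2 kb downstream in untreated and 49.6% in irradiated cells. Strands cannot be separated in these profiles, so divergent upstream transcription and signal of neighbouring genes cannot be told apart.

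**Figure D2:**
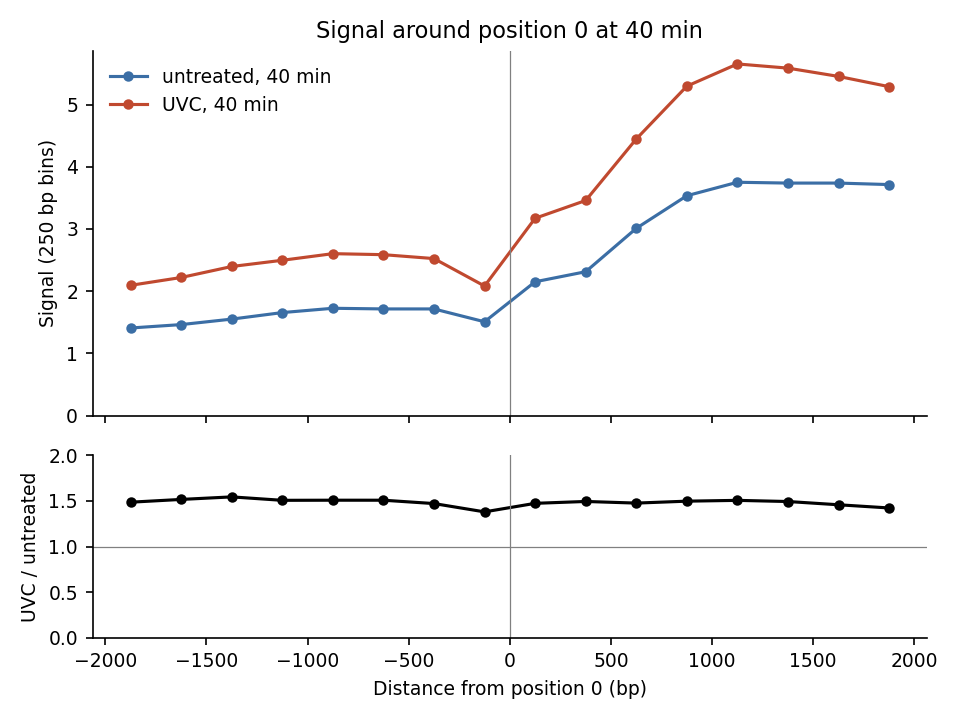
Signal in 250 bp bins (upper panel) and the ratio of UVC to untreated signal (lower panel) against distance from position 0 in bp, at 40 min, 1 library per line. The UVC line is above the untreated one in all 16 bins, and the ratio stays between 1.38 and 1.55 on both sides of position 0.

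In the early gene body, between 2 and 10 kb, the direction of the difference turned over. The 2 to 5 kb window had a mean signal of 3.58 without UVC and 4.39 with it, a ratio of 1.23 [1.22, 1.23]. In the 5 to 10 kb window the signal was 3.47 without and 3.01 with UVC, a ratio of 0.868 [0.866, 0.870]. A mean over the whole stretch averages a higher and a lower part. In the smoothed profiles (running mean of 2 kb) the ratio was 1.41 at 2 kb, 1.16 at 4 kb, 0.973 at 6 kb and 0.713 at 10 kb. The crossing depended on the scaling between libraries. It moved from 5.68 to 7.62 kb on division by the mean of the last 12 kb, and to 11.1 kb on division by the mean over all positions. The 5 to 10 kb window was then the higher after UVC, with log2 ratios of 0.028 and 0.40 in place of -0.20.

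The lowest ratios lay in the gene body between 10 and 50 kb. In the 10 to 15 kb window the signal was 3.39 without and 2.04 with UVC, a ratio of 0.601. The 15 to 20 kb window had 3.32 and 1.47, a ratio of 0.444, and the 20 to 25 kb window 3.22 and 1.15, a ratio of 0.358 [0.356, 0.359]. The lowest ratio of the 17 windows, 0.323 [0.322, 0.324], was that of the 25 to 30 kb window, with a signal of 3.17 without and 1.03 with UVC. Past this point the ratio rose again as the untreated signal declined while the irradiated signal stayed nearly level.

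The untreated signal was 3.09 in the 30 to 40 kb window, 2.60 in the next 10 kb and 2.06 in the 10 kb after that. The irradiated signal in these 3 windows was 1.07, 1.11 and 1.14, and the ratios were 0.346, 0.428 and 0.552. The smoothed ratio returned to 0.5 at 51.5 kb and to 0.75 at 68.4 kb. All 7 windows between 10 and 60 kb were lower after UVC under both other scalings as well, although less so. On division by the mean over all positions, the ratio fell to 0.5 at 25.3 kb in place of 15.3 kb and was back at 0.5 at 29.6 kb.

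**Figure D3:**
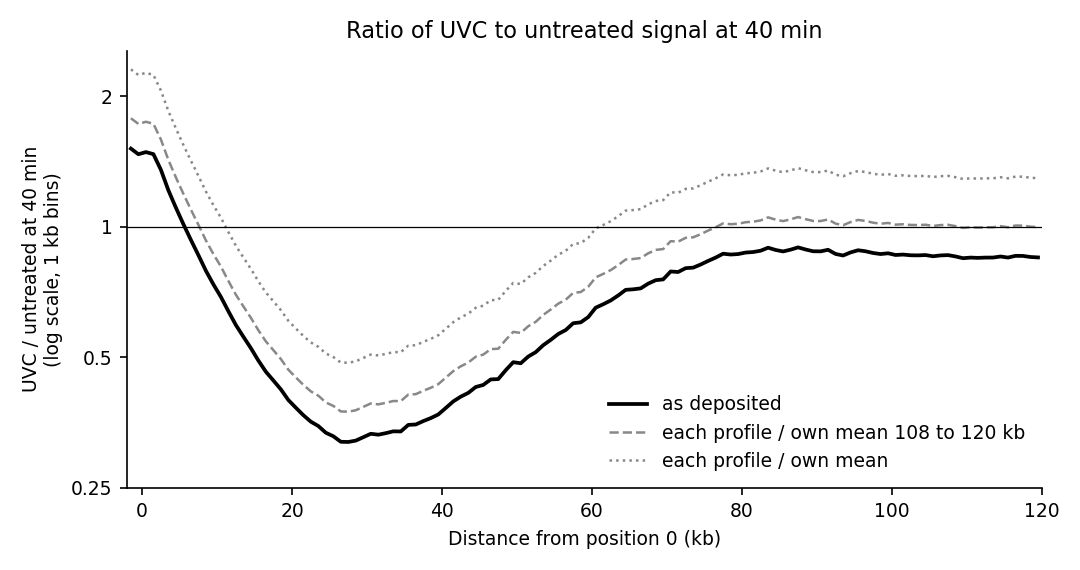
Ratio of UVC to untreated signal at 40 min (log axis, 1 kb bins) against distance from position 0 in kb, as deposited (solid) and after 2 other scalings of each profile (dashed and dotted). The 3 lines have the same shape and are lowest near 27.6 kb, but the scalings place them at different heights and so at different crossings of 1.

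At the distal positions the smoothed ratio rose up to 83.3 kb, where it was 0.892, and was slightly lower beyond. The 60 to 75 kb window had a signal of 1.60 without and 1.18 with UVC (ratio 0.735), and the 75 to 90 kb window 1.35 and 1.18 (0.874). The ratio was 0.867 over the next 18 kb and 0.851 over the last 12 kb. From 75 kb on, the smoothed ratio stayed within 0.826 and 0.892. A ratio of 1 is imposed on the last 12 kb by 1 of the other scalings, and the log2 ratio of the 75 to 90 kb window was then 0.038 in place of -0.19. Division by the mean over all positions raised the log2 ratio above 0 in each of the 4 windows past 60 kb, to 0.16 in the nearest and 0.37 in the farthest. No direction is therefore given for the distal windows.

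The shape of a profile within its own library does not depend on how the libraries were scaled against each other. In untreated cells the smoothed signal fell by 5.17% between 2 and 5 kb and by 2.37% between 5 and 10 kb. Between 2 and 35 kb it fell by 15.3% in all, from 3.69 to 3.13, so the untreated profile had a nearly flat top. After UVC the signal fell by 28.8% between 2 and 5 kb, by 34.4% between 5 and 10 kb, by 29.9% between 10 and 15 kb and by 25.5% between 15 and 20 kb. Over the same 2 to 35 kb it fell by 79.4%, from 5.22 to 1.07. The irradiated profile had no flat stretch between 2 and 20 kb, and its lowest level was 1.005, at 27.6 kb.

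On the log2 scale above the same library's lowest level, the irradiated signal fell almost along a straight line between 2 and 15 kb. A least-squares line through 1 kb bins between 2 and 15 kb had a slope of -1.94 per 10 kb after UVC and -0.14 per 10 kb without it. The irradiated slope corresponds to a halving every 5.17 kb. Its slope was -2.24 between 2 and 5 kb, -1.86 between 5 and 10 kb, -2.14 between 10 and 15 kb and -2.70 between 15 and 20 kb. The last of these lies closest to the level that was subtracted. With the mean of the last 12 kb as the background the slope between 2 and 15 kb was -2.13. The lowest levels were above the 10 min signal at the same distances. In the 25 to 30 kb window, which holds the irradiated lowest level, the irradiated signal was 1.03 at 40 min and 0.836 at 10 min. The untreated lowest level was 1.32, at 90.5 kb, where the untreated 10 min signal was 1.15. The slopes and the halving distance hold only for the level subtracted.

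**Figure D4:**
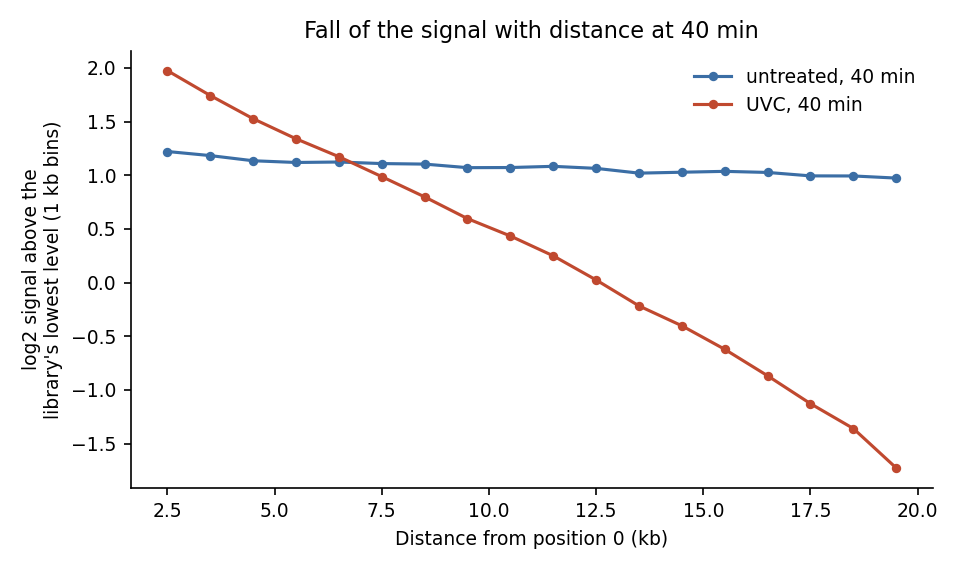
Log2 of the signal above each library's lowest smoothed level, in 1 kb bins, against distance from position 0 in kb, at 40 min, 1 library per line. The UVC points descend at -1.94 per 10 kb between 2 and 15 kb, and the untreated points at -0.14.

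The distance reached was next read at fixed parts of each library's own height at 2 kb above its lowest level. The signal was down to 75% of this height at 35.7 kb without UVC but at 3.91 kb with it. It was down to 25% at 58.3 kb without UVC but at 12.3 kb with it. The irradiated distance was 10.9% of the untreated one at 75%, 15.1% at 50% and 21.1% at 25% of the height. With the height taken at 5 kb in place of 2 kb these shares were 18.8%, 21.7% and 25.7%. The irradiated wave was thus shorter at each of the 3 heights, and by a larger factor at the top of the profile than at its foot.

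Reading both libraries at the same absolute level gave a gap that widened towards lower signal. A level of 3 was reached at 37.7 kb by the untreated and at 7.45 kb by the irradiated profile, a gap of 30.2 kb. For a level of 2 the distances were 56.2 and 12.7 kb, a gap of 43.5 kb, and for 1.5 they were 70.7 and 17.1 kb, a gap of 53.6 kb. Close to the untreated plateau, at a level of 3.5, the gap was -0.645 kb, so the irradiated profile reached further there. At 25 min the corresponding distances for a level of 2 were 32.7 and 11.1 kb, a gap of 21.6 kb. The position at that level was thus 23.5 kb farther out at 40 than at 25 min in untreated cells and 1.54 kb farther out in irradiated cells. These differences between times depend on the scale of each library and were not obtained under another scaling. They also depend on the level, since at 3.5 the untreated position was 15.7 kb at 25 min and 5.01 kb at 40 min. On division by the mean over all positions the 40 min gap at the level of 2 was 36.7 kb.

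The 10 min libraries give the level in the gene body before most of the wave arrived. Past 20 kb the treatments had almost the same level at 10 min, and their ratio lay between 0.998 and 1.03 in each of the 9 windows. In the 20 to 25 kb window the untreated signal was 0.769 at 10 min and 3.22 at 40 min, a gain of 2.46. With UVC it was 0.768 at 10 min and 1.15 at 40 min, a gain of 0.385. The irradiated gain was 15.7% of the untreated one in this window, 28.6% in the 15 to 20 kb window, 8.08% in the 25 to 30 kb window and 2.18% in the 30 to 40 kb window. On division by the mean over all positions the first 3 of these became 27.1%, 50.2% and 13.5%.

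Between 40 and 90 kb the irradiated signal was not above its 10 min level in any window. The change in the 40 to 50 kb window was -0.050 with UVC and 1.47 without. In the 50 to 60 kb window it was -0.047 with UVC and 0.886 without. Between 5 and 50 kb the irradiated gain shrank from each window to the next. In the 5 to 10 kb window it was above the untreated gain, at 1.23 against 0.463. In the 10 to 15 kb window it was below, at 1.19 against 2.18. The treatments already differed at 10 min in these windows, with ratios of irradiated to untreated signal of 0.593 and 0.697. Gains below 15 kb are therefore not measured from a common level. The gain in the 15 to 20 kb window was 60.7% of that in the 5 kb before it, and the next 2 windows had 53.2% and 49.3% of the one before. In untreated cells the same steps were 117%, 96.8% and 95.6%. The first step in each treatment divides by the gain in the 10 to 15 kb window, so the same limit applies to it. Both treatments had less signal at 40 than at 10 min in each window up to 5 kb. In the second kilobase the signal was 8.24 at 10 min and 3.74 at 40 min without UVC, and 8.41 and 5.49 with it.

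**Figure D5:**
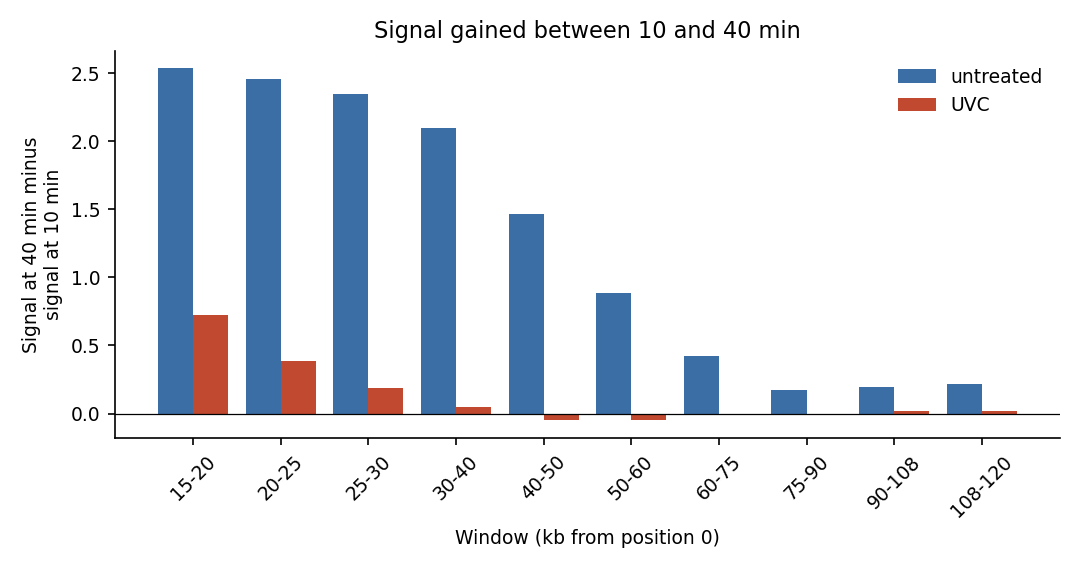
Signal at 40 min minus signal at 10 min in the 10 windows from 15 kb on, for untreated (blue) and UVC-irradiated cells (red), each bar a difference of 1 library from another. The untreated gain is 2.54 in the 15 to 20 kb window and 0.422 in the 60 to 75 kb window, and the UVC gain goes from 0.724 to below 0 in the 40 to 50 kb window.

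The untreated signal was also higher at 40 than at 10 min far ahead of its wave, by 0.220 over the last 12 kb, where the irradiated signal was higher by 0.017. The untreated signal exceeded the irradiated signal there by 0.20 at 40 min. The untreated signal over the last 12 kb was also above its 10 min level at 25 min. At 25 min the signal there was 1.30 without and 1.18 with UVC, and at 10 min it was 1.13 in each. A factor that lifts the whole untreated 40 min profile would enter each of its gains, and its part was not tested. On division by the mean of the last 12 kb, the irradiated gain in the 25 to 30 kb window was 9.50% of the untreated one.

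Summed from 0 to 120 kb, the total after UVC was 64.6% of the untreated total, with means of 1.41 and 2.18 per base. The net difference was centred in the middle gene body, since 10% of it was reached by 18.2 kb, 50% by 36.0 kb and 90% by 71.1 kb. The stretch between 25 and 50 kb held 49.4% of it, that between 15 and 25 kb 21.1% and that between 50 and 75 kb 16.8%. The first 5 kb held -5.97%, since the irradiated signal was the higher there. The ratio of the totals and these parts of the net difference depend on the scaling. On division by the mean of the last 12 kb, 10% of the net difference was reached by 21.8 kb, 50% by 34.8 kb and 90% by 53.6 kb. As shares of its own total, the first 5 kb held 6.58% of the untreated and 13.4% of the irradiated signal. The stretch between 25 and 50 kb held 27.8% of the untreated and 15.9% of the irradiated signal. These shares of each library's own total are free of the scaling between libraries.

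Fine irregularities were partly shared between the libraries. After division by a running mean of 5 kb, the deviations of 250 bp bins had an SD of 1.08% in untreated and 1.64% in irradiated cells over 462 bins. They were correlated with Pearson's r = 0.72 across these bins, as a description only. The bins share the averaged genes and the genome mapping, and neighbouring bins are not independent. Between 10 and 60 kb r was 0.53 over 200 bins, with SDs of 0.718% and 1.30%. Between 60 and 117 kb it was 0.57 over 228 bins, with SDs of 0.942% and 1.26%. Both are below the 0.72 of the full range, which also takes in the stretch from 2 to 10 kb. The roughness along either profile is no measure of the spread between cultures, so the differences between the libraries cannot be judged by it.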

How the data were processed

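The authors deposited 1 averaged signal profile per library, with no counts, per the file headers. The submitters' processing notes name BWA 0.5.9 and hg19/GRCh37, and the labels' protocols give strand-specific libraries read as single ends of 51 bp. The gene set, the extension of reads and the scaling are not given in the sources used here. From the deposited signal, window means over 17 windows, ratios without a pseudocount or background, running means of 2 kb, crossings and least-squares slopes (2 to 15 kb) were obtained in Python 3.11.15 using numpy 2.4.6 and, for intervals, scipy 1.17.1. Functions were checked on simulated profiles with known answers. Groups were taken from the source names in the labels. No test was made, as each group held 1 library. The comparison, its windows and its alternatives were chosen with earlier results of these data known. By the rule for named genes, none is named and regions are the fixed windows. Alternatives changed the scaling, smoothing, window summary, background, bin size and distance range. The reference genome was not used.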

Additional observations from a re-analysis of the deposited data

Results flagged for a closer look

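In 8 windows the difference between irradiated and untreated signal had one sign at 40 min and the other at 10 or 25 min. The change of sign was not tested in any of them, as there is 1 library a side at each time. In the 2 to 5 kb window the log2 ratio of irradiated to untreated signal was -0.32 at 10 min but 0.29 at 40 min. In 7 windows past 25 kb the 10 min value was slightly above 0 and the deposited 40 min value below it. The 25 to 30 kb window had a log2 ratio of 0.018 at 10 min and -1.63 at 40 min, and the 30 to 40 kb window 0.040 and -1.53. The 40 to 50 kb window had 0.042 and -1.22, and the 50 to 60 kb window 0.014 and -0.86, with 0.063 at 25 min. The 60 to 75 kb window had 0.011 and -0.44, the 75 to 90 kb window 0.0060 and -0.19, and the last 12 kb 0.0022 and -0.23. In these last 3 windows the 40 min sign depends on the scaling, so the change of sign there does too.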

How the results depend on the processing

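No paired analysis was possible because each group holds 1 library. Of 191 values under other settings, 69 stayed within counting error (ratios), 1 kb (positions), 10% (slopes, gains and start bins) or 1.5 times (shares of bins), 114 moved and 8 changed sign. All sign changes came from scaling. Division by the mean over all positions multiplies every ratio by 1.52 and division by the mean of the last 12 kb by 1.17. The log2 ratio became 0.40 and 0.028 in the 5 to 10 kb window, 0.41 and 0.038 in the 75 to 90 kb window and 0.40 and 0.026 in the 18 kb after it. Under the former alone it became 0.16 in the 60 to 75 kb window and 0.37 in the last 12 kb.

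Given in the same order of scalings, the lowest window was -1.02 and -1.40 (log2), the ratio fell to 1 at 11.1 and 7.62 kb and the gap at a level of 2 was 36.7 and 41.1 kb. The irradiated gain in the 25 to 30 kb window was 13.5% and 9.50% of the untreated one, and the lowest log2 ratio around position 0 was 1.07 and 0.70. The former left 3.28% of bins 2-fold lower and the latter put 50% of the missing signal before 34.8 kb. The former equalises the totals, so no position of missing signal can be given under it. The median over positions gave -1.64 (log2) for the lowest window. Subtraction of the mean of the last 12 kb gave -8.37, in the 20 to 25 kb window. The irradiated signal there, 1.153, was barely above the subtracted 1.147, although it was above its 10 min level of 0.768. This value thus reflects the level subtracted and not an absence of signal. The subtraction gave no value in 7 windows with signal at or below the subtracted level in 1 or both libraries. The gap at 50% of the height was 41.4 kb with a running mean of 5 kb and 37.7 kb with the height at 5 kb. The irradiated slope was -2.13 per 10 kb between 5 and 20 kb. Counting error is small beside the differences given, whereas the spread between cultures is unknown.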
